A study of Mus musculus with 6 samples.

Results

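Lipases release fatty acids from stored and circulating fat, and a small set of partner proteins decides where and when they act. The 9 genes described here are the intracellular lipases Pnpla2, Lipe and Mgll, the vascular lipases Lpl, Lipc and Lipg, and the regulators Angptl4, Angptl8 and Gpihbp1. They were chosen by name, with earlier results of these data known, and all 9 were found among the 54532 genes of the count table. The data are bulk RNA sequencing of whole liver from male mice, 3 libraries labelled wild type (WT 1, 2 and 3) and 3 labelled Trem2 knockout (KO 4, 5 and 6). Both groups were littermates, 8 weeks old when put on a high-fat diet, which loads the liver with fat, and were kept on it for 8 weeks. Trem2 is a lipid-sensing receptor of macrophages; neither the allele nor the deleted exons are named in the sources used here. The comparison asks how the liver on this diet differs where Trem2 is missing.

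Inside the cell, lipolysis runs in steps: Pnpla2 (adipose triglyceride lipase) takes the first fatty acid from a triglyceride, Lipe (hormone-sensitive lipase) acts on the resulting diglyceride, and Mgll (monoglyceride lipase) on the last monoglyceride. In the blood vessel, Lpl (lipoprotein lipase) clears triglyceride from chylomicrons and VLDL, while Lipc (hepatic lipase) and Lipg (endothelial lipase) work mainly on remnants and on HDL. Gpihbp1 carries Lpl to the capillary surface and holds it there, and the angiopoietin-like proteins Angptl4 and Angptl8 limit Lpl, the first in the fasted and the second in the fed animal. The adult liver makes Lipc, Angptl4 and Angptl8 in its hepatocytes, whereas Lpl is best known from fat, muscle and macrophages.

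The widest range among the libraries was that of Angptl8, and the vascular lipase with the highest level per length was Lipc. Mgll alone had groups that did not overlap, though Gpihbp1 had the smaller p in the edgeR fit. For these 3 genes the 250 bases before the annotated start are shown, because the results below turn on them. The sequences are from RefSeq on build GRCm38.p6, which covers the same assembly as mm10, and 5 of the 9 genes had an entry in that table (Pnpla2, Lipe, Mgll, Lipc and Angptl8). Each is written 5′ to 3′ on the strand of its gene, and capitals mark matches to any of 7 motifs, searched on both strands. They were the E-box spelled CACGTG, the palindrome spelled GTTAAC, the TATA box spelled TATAAA, the nuclear receptor half-site spelled AGGTCA, the CCAAT box, the composite of C/EBP and ATF spelled TGATGCAA, and the GC box spelled GGGCGG. The motifs were chosen with the sequences in view. No searched motif contains another.
Angptl8, chr9:21835260-21835509, plus strand: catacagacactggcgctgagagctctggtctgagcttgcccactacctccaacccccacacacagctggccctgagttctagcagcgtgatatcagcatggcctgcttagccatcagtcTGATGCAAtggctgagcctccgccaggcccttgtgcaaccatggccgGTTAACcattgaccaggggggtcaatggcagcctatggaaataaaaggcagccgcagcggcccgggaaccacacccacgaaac
Mgll, chr6:88724162-88724411, plus strand: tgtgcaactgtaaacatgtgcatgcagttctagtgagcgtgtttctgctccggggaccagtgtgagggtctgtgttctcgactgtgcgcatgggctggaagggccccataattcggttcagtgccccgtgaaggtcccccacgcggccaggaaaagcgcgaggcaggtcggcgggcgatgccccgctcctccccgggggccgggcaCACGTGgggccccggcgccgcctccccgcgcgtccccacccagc
Lipc, chr9:70952222-70952471, minus strand: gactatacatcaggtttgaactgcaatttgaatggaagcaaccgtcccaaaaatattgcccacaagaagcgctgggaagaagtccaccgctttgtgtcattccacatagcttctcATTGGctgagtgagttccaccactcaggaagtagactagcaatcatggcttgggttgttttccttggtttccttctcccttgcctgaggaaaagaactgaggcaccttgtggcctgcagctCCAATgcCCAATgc
The Angptl8 window held TGATGCAA, a match found in 0.792% of 32851 promoter windows of this length, and GTTAAC, found in 2.56%. The Mgll window held 1 CACGTG, found in 6.02% of windows. The Lipc window held CCAAT at 3 places, and 33.8% of windows held it at least once. The Mgll window lies wholly within an annotated exon of Gm26588, a noncoding gene on the opposite strand. The last 5 bases of the Lipc window lie within a Lipc exon of the GENCODE annotation, which places the start of this gene further upstream than RefSeq, and the CCAAT nearest the start reaches into that exon. A match is a run of letters and says nothing about binding.

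The libraries held 11591021 to 20399361 counts each, and mitochondrially encoded genes took 8.16% to 28.0% of them, the highest share being that of KO 4. KO 6 followed at 19.8%, and both lay above every WT-labelled library. Trem2 itself was scarce and did not separate the labels. Its level was 0.436, 1.66 and 1.26 CPM in WT 1, 2 and 3 and 0.817, 0.278 and 0.328 CPM in KO 4, 5 and 6, so that WT 1 fell among the KO-labelled values. The log2 change of Trem2 was −1.30 (SE 0.68, edgeR adjusted p = 0.633). Groups are therefore named as labelled. CPM are counts scaled by TMM to a common library total. Hepatocyte genes were abundant in all 6 libraries, where 10 markers summed to 78521 to 116133 CPM; 9 of the 10 were fitted lower in KO-labelled livers, 0 past the threshold, with a median log2 change of −0.28.

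KO 5 stood apart in genes of other tissues that also use these lipases. The 6 markers that define white adipocytes (Adipoq, Lep, Retn, Plin1, Adig and Slc7a10) together had 1, 0 and 1 counts in WT 1, 2 and 3, 7 and 6 counts in KO 4 and KO 6, and 371 counts in KO 5. These 6 were picked from the adipocyte list after their values were seen. All 8 genes of that list found in the table, Cfd and Fabp4 included, summed to 12.8, 69.4 and 34.3 CPM in WT 1, 2 and 3 and to 95.8, 103 and 58.0 CPM in KO 4, 5 and 6. On that sum KO 5 was close to KO 4, where Cfd was highest at 71.9 CPM against 41.1 CPM in KO 5. Adipoq, the fat cell hormone adiponectin, had 125 of these counts in KO 5 and at most 2 in any other library. The 7 skeletal muscle markers summed to 77.5 CPM in KO 5 and to 0.561 to 1.45 CPM in the other 5 libraries, with Tnnc2 at 0 in all. Exocrine pancreas markers summed to at most 0.535 CPM, with Pnlip, Prss2 and Amy2a5 at 0 in all libraries. Since Lpl, Lipe, Mgll and Pnpla2 are known as genes of fat and muscle, the log2 change of each of the 9 is also given without KO 5. For the 5 genes where this is not repeated below, the log2 change of KO-labelled over WT-labelled libraries without KO 5 was 0.23 for Pnpla2, −0.24 for Lipc, −0.36 for Lipg, 0.24 for Angptl4 and 1.03 for Angptl8, in the same direction as with it.

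**Figure D1:**
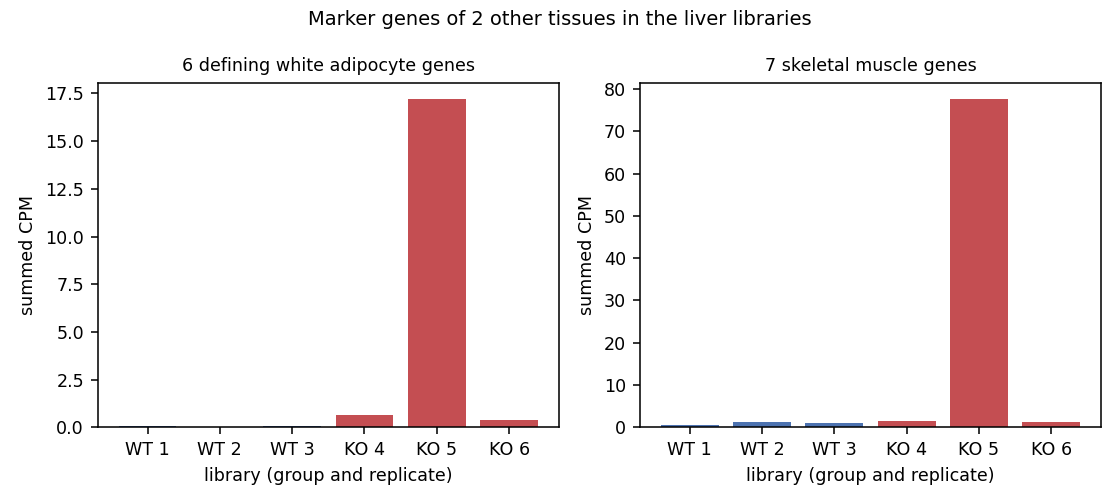
Summed CPM of 6 defining white adipocyte genes (left) and 7 skeletal muscle genes (right) in each liver library, blue for WT-labelled and red for KO-labelled. KO 5 stands at 17.2 CPM for the adipocyte genes and 77.5 CPM for the muscle genes, and every other library lies at or below 1.45 CPM in both.

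None of the 9 genes passed the threshold. All 9 passed the filter on low counts, 7 had higher fitted levels in KO-labelled livers and 2 had lower ones, and 0 had an adjusted p under 0.05 in edgeR's quasi-likelihood test, where 0.0146% of the 13693 genes tested did. None had an unadjusted p under 0.05 in that fit either, against 8.58% of all genes tested, and DESeq2 also called 0. The adjusted p of the 9 genes ran from 0.597 (Gpihbp1) to 0.933 (Angptl4). Their median log2 change was 0.34, beside −0.01 over all genes tested. In 1 of the 9, Mgll, the groups did not overlap, where 13.9% of all genes tested showed no overlap. Exact permutation tests on the CPM, two-sided, gave p from 0.1 to 0.8, and 0.1 is the smallest that 3 against 3 libraries allow. A missed threshold leaves room for sizeable differences: in simulated data of this size edgeR recovered 1 of 50 genes changed by a factor of 2 and 29 of 50 changed by a factor of 4. Nothing in the labels states that the libraries come from different mice, so the p-values reflect only the spread between these samples, which may be technical. Where single livers are spoken of, libraries are meant.

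**Figure D2:**
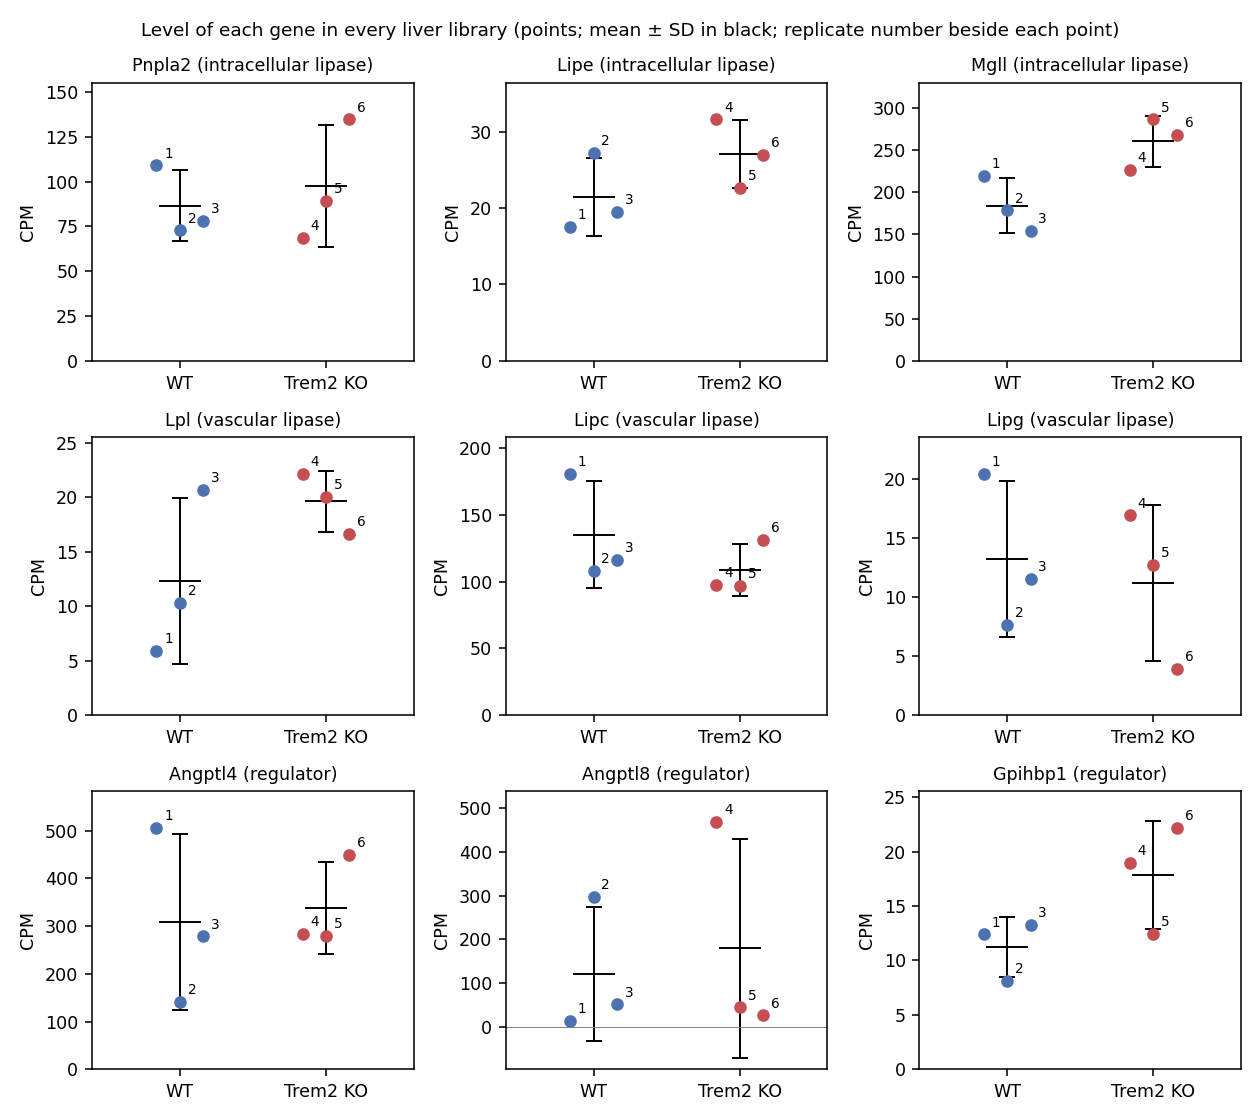
CPM of each of the 9 genes (vertical axes, 1 per panel) in the WT-labelled and KO-labelled libraries, with replicate numbers beside the points and the mean ± SD in black. Mgll alone shows no overlap between the groups, and Angptl8 runs from 13.8 to 468 CPM.

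**Figure D3:**
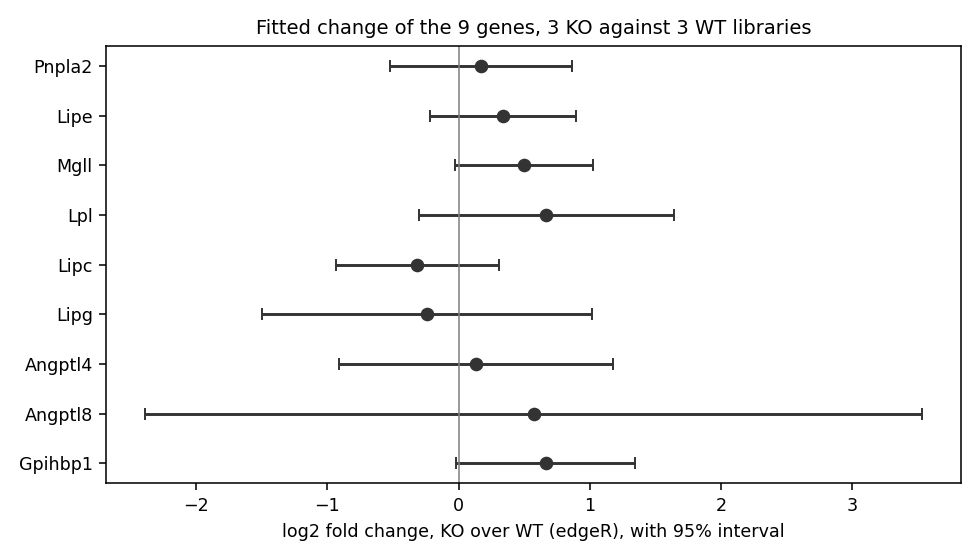
Fitted log2 fold change of KO-labelled over WT-labelled livers for the 9 genes (points) with 95% intervals from the edgeR fit. Every interval includes 0; the widest is that of Angptl8, from −2.39 to 3.53.

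Per length of gene, the liver held mostly regulators and the hepatic lipase. Levels are compared between genes as CPM per kilobase (CPM divided by the gene length in the count table), as the mean ± SD over the 6 libraries. Angptl8 stood first at 173 ± 218, followed by Angptl4 at 98.3 ± 40.4, Lipc at 56.6 ± 14.7, Mgll at 43.8 ± 9.94 and Pnpla2 at 30.5 ± 8.44 CPM per kilobase. A gap separated these 5 from the other 4, since the lowest Pnpla2 value, 22.6, lay above the highest Gpihbp1 value, 8.69. Gpihbp1 stood at 5.71 ± 1.996, Lipe at 4.12 ± 0.903, Lipg at 3.22 ± 1.58 and Lpl at 1.52 ± 0.619 CPM per kilobase. All other neighbours in this order had overlapping ranges. The length of Lipg in the count table, 3787 bases, is below the 4715 exonic bases of GENCODE vM21, and that of Angptl4 is 3286 against 3541 bases, so their levels per length depend on the annotation. The length of Lpl, 10478 bases, is the largest of the 9 and joins the exons of 5 transcripts, so its place depends on it too. In CPM Lpl averaged 12.3 over the WT-labelled and 19.6 over the KO-labelled libraries. Gpihbp1 was lower, at 11.3 and 17.9 CPM, and Lipg stood at 13.2 and 11.2 CPM. Per length within single libraries, Mgll lay above Pnpla2 in 6 of 6, and Lipc above Mgll in 5 of 6, whereas Angptl8 lay above Angptl4 in only 2 of 6.

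**Figure D4:**
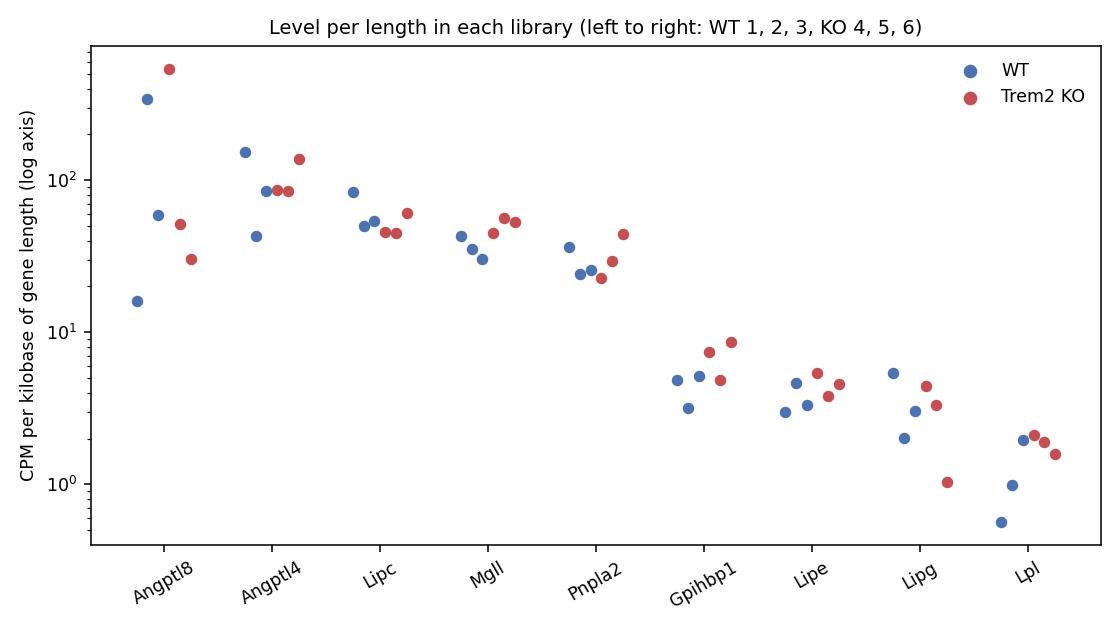
Level per length (CPM per kilobase, log axis) of the 9 genes in each library, ordered by the mean over 6 libraries. Points run from WT 1 to KO 6 within each gene, and the 5 genes on the left lie at or above 15.99 while the 4 on the right lie at or below 8.69.

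Mgll was the intracellular lipase whose groups did not overlap, which 13.9% of all genes tested also showed. Mgll (ENSMUSG00000033174, mm10 chromosome 6, 88724412 to 88828360, plus strand) stood at 219, 179 and 155 CPM in WT 1, 2 and 3 and at 227, 287 and 268 CPM in KO 4, 5 and 6. The 3 KO-labelled values were all above the WT-labelled ones, but KO 4 exceeded WT 1 by little. The means were 184 ± 32.6 and 260 ± 30.7 CPM (SD, n = 3 each), a fitted factor of 1.41 (95% interval 0.982 to 2.04; log2 0.50, SE 0.23, edgeR adjusted p = 0.605). KO 5, the library with adipocyte and muscle markers, had the highest value. Without it the remaining KO-labelled libraries were still above all WT-labelled ones, and the log2 change was 0.42 (SE 0.25, edgeR adjusted p = 0.388). The edgeR unadjusted p of Mgll was 0.138 without KO 5, against 0.060 with it. Adjusted p-values are not comparable between these fits. Without KO 5, 2662 of 13938 genes had an edgeR unadjusted p under 0.05, against 1175 of 13693 with it. Mgll shares 167 exonic bases, 3.29% of its own, with the antisense gene Gm26588, which had 103 to 255 counts beside 2496 to 6189 for Mgll. The sources used here do not state whether the counting used strand, and without it reads of the 2 genes cannot be told apart there.

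Pnpla2 and Lipe, the earlier steps of the same pathway, overlapped between the groups. Pnpla2 (ENSMUSG00000025509, chromosome 7, 141455198 to 141460743, plus strand) stood at 109, 72.7 and 77.9 CPM in WT 1, 2 and 3 and at 68.4, 89.2 and 135 CPM in KO 4, 5 and 6. The lowest and the highest value were both in KO-labelled libraries. The log2 change was 0.17 (SE 0.30, edgeR adjusted p = 0.854), and without KO 6 it was −0.14. Lipe (ENSMUSG00000003123, chromosome 7, 25379527 to 25398710, minus strand) stood at 17.5, 27.2 and 19.5 CPM in the WT-labelled and at 31.6, 22.6 and 27.0 CPM in the KO-labelled libraries. WT 2 overlapped with the KO-labelled livers. The log2 change of Lipe was 0.34 (SE 0.24, edgeR adjusted p = 0.682), and without KO 5 it was 0.45 (SE 0.25). Lipe shares 918 exonic bases, 15.6% of its own, with the antisense gene 4732471J01Rik, which had 2 to 11 counts beside 281 to 488 for Lipe.

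The livers with the least Pnpla2 had the most Lipe, but WT 2 by very little. Lipe was highest in KO 4, at 31.6 CPM, and WT 2, at 27.2 CPM, the libraries with the lowest Pnpla2. KO 6, highest in Pnpla2, had nearly as much Lipe as WT 2, at 27.0 CPM. WT 1, second highest in Pnpla2, had the lowest Lipe level. Per length, Lipe stood at 0.0824 times the Pnpla2 level in WT 1 and at 0.237 times in KO 4, the extremes of the 6 libraries. Mgll made up 51.2% to 55.1% of the summed level per length of the 3 intracellular lipases in the WT-labelled libraries, and 61.4%, 62.9% and 51.8% in KO 4, 5 and 6.

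Of 15 partners of the intracellular lipases 0 passed the threshold. This list holds activators, inhibitors and droplet proteins; 10 were fitted higher and 5 lower, with a median log2 change of 0.29. The median depended on single libraries: it was 0.059 without WT 2, where 8 were fitted higher and 7 lower, and 0.11 without KO 5. Fitm1, which helps to form lipid droplets, averaged 92.2 ± 28.6 CPM over the WT-labelled libraries against 179.9 ± 35.3 CPM over the KO-labelled ones. Its groups did not overlap (log2 0.96, SE 0.29, edgeR adjusted p = 0.416). In this list 3 genes were higher and 0 lower without overlap, where 13.9% of all genes tested showed no overlap. Abhd6, a further monoacylglycerol hydrolase, averaged 47.0 ± 10.3 CPM against 77.4 ± 18.6 CPM, a log2 change of 0.72 (SE 0.26, edgeR adjusted p = 0.521). Of the direct partners of Pnpla2, chosen after their values were seen, the coactivator Abhd5 had a log2 change of −0.20 and the inhibitor G0s2 of 0.58. G0s2 ran from 179 CPM in WT 1 to 1052 CPM in KO 4. These are the libraries with, in that order, the second highest and the lowest Pnpla2 level, but KO 6, highest in Pnpla2, had 710 CPM of G0s2, close to the 716 CPM of WT 2, which had the second lowest Pnpla2.

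Lpl, the scarcest of the 9 per length but not in CPM, was more spread among the WT-labelled than among the KO-labelled livers. Lpl (ENSMUSG00000015568, chromosome 8, 68880491 to 68907448, plus strand) stood at 5.92, 10.3 and 20.7 CPM in WT 1, 2 and 3, a range of 3.49-fold. In KO 4, 5 and 6 it stood at 22.2, 20.01 and 16.6 CPM, a range of 1.33-fold. WT 3 lay among the KO-labelled livers and the other WT-labelled livers lay below them. The fitted factor was 1.59 (95% interval 0.809 to 3.12; log2 0.67, SE 0.42, edgeR adjusted p = 0.666). Without WT 1 the log2 change was 0.33 (SE 0.33). Without WT 3 it was 1.25 (SE 0.34, edgeR adjusted p = 0.887), with an edgeR unadjusted p of 0.0080 against 0.152 in all 6 libraries. Without KO 5, the library with adipocyte and muscle markers, the log2 change was 0.65 (SE 0.48). Counts were 95 to 432 per library.

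Gpihbp1, the anchor of Lpl on capillaries, was higher in KO 4 and KO 6 than in any WT-labelled liver. Gpihbp1 (ENSMUSG00000022579, chromosome 15, 75596628 to 75599481, plus strand) stood at 12.4, 8.13 and 13.3 CPM in WT 1, 2 and 3 and at 18.98, 12.5 and 22.2 CPM in KO 4, 5 and 6. Only KO 5 lay within the WT-labelled range. The means were 11.3 ± 2.75 and 17.9 ± 4.96 CPM (SD, n = 3 each), a fitted factor of 1.58 (95% interval 0.986 to 2.54; log2 0.66, SE 0.29, edgeR adjusted p = 0.597). Without KO 5 the log2 change was 0.86 (SE 0.27, edgeR adjusted p = 0.211), with an edgeR unadjusted p of 0.016 against 0.056 with it.

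Markers of endothelial and Kupffer cells were also fitted higher, but did not follow Gpihbp1 and Lpl in every library. Which liver cells made Gpihbp1 and Lpl was not tested, and the endothelial list holds mostly sinusoidal markers. Summed over 15 markers, sinusoidal and vascular endothelium ranged from 270 to 312 CPM over the WT-labelled libraries and from 394 to 551 CPM over the KO-labelled ones, and all 15 were fitted higher, 0 past the threshold. Summed over 12 markers, Kupffer cells, the resident macrophages, stood at 141 to 195 CPM and at 246 to 323 CPM, with 11 of 11 tested markers fitted higher and 0 past the threshold. This direction was not particular to these cells. Stellate cell markers summed to 312 to 349 CPM in the WT-labelled and 412 to 542 CPM in the KO-labelled libraries, with 6 of 9 fitted higher. Of monocyte and lipid-associated macrophage markers 7 of 7 tested were fitted higher, and of cholangiocyte markers 3 of 4 tested, all with 0 past the threshold. In bulk tissue a different number of cells and a different amount of RNA per cell cannot be told apart. Relative to the endothelial marker sum, Gpihbp1 stood at 4.59%, 2.60% and 4.57% in WT 1, 2 and 3 and at 3.45%, 3.16% and 4.40% in KO 4, 5 and 6, so that the groups overlapped. WT 2 had the highest endothelial sum of its group but the lowest Gpihbp1 level. Relative to the Kupffer marker sum, Lpl stood at 4.20%, 6.55% and 10.6% in the WT-labelled and at 7.74%, 8.14% and 5.14% in the KO-labelled libraries, and these overlapped as well. KO 6 had the highest Kupffer sum of all but the lowest Lpl level of its group. Both ratios were formed after the values were seen.

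Lipc supplied most of the vascular lipase message in every liver. Lipc (ENSMUSG00000032207, chromosome 9, 70798128 to 70952226, minus strand) stood at 181, 108 and 116 CPM in WT 1, 2 and 3 and at 97.5, 96.8 and 131 CPM in KO 4, 5 and 6. WT 1 was the highest and the other 5 lay between 96.8 and 131 CPM. The log2 change was −0.32 (SE 0.27, edgeR adjusted p = 0.714), and without WT 1 it was −0.05 (SE 0.25). WT 1 also had the highest sum of the 10 hepatocyte markers, whose part in the Lipc values was not tested. Per length, Lipc made up 87.3% to 95.9% of the 3 vascular lipases, and it exceeded Lpl 149-fold in WT 1 and 21.4-fold in KO 4. These values depend on the lengths used, 2150 bases for Lipc and 10478 bases for Lpl. In CPM the distance was smaller, 181 for Lipc beside 5.92 for Lpl in WT 1 and 97.5 beside 22.2 in KO 4. The summed level of the 3 was 53.2 to 90.1 CPM per kilobase in WT-labelled and 50.3 to 63.7 in KO-labelled libraries.

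Lipg had no common direction. Lipg (ENSMUSG00000053846, chromosome 18, 74939322 to 74961263, minus strand) stood at 20.4, 7.62 and 11.5 CPM in WT 1, 2 and 3 and at 16.9, 12.7 and 3.94 CPM in KO 4, 5 and 6. The groups overlapped, and the lowest value, KO 6, rested on 60 counts. The log2 change was −0.24 (SE 0.54, edgeR adjusted p = 0.887), 0.21 without WT 1 and 0.16 without KO 6.

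The partners of lipolysis in the vessel were evenly divided. Of 20 such genes, which process, activate or inhibit lipases or take up the remnants, 10 were fitted higher and 10 lower, 0 past the threshold, with a median log2 change of −0.01 (0.039 without KO 5). Lrp1, a receptor for lipoprotein remnants, averaged 581 ± 72.9 CPM over the WT-labelled libraries against 345 ± 71.3 CPM over the KO-labelled ones, without overlap (log2 −0.75, SE 0.24, edgeR adjusted p = 0.460). Vldlr, a receptor of VLDL, averaged 1.21 ± 0.564 CPM against 2.39 ± 0.735 CPM, also without overlap (log2 0.98, SE 0.49, edgeR adjusted p = 0.625). It rested on only 9 to 49 counts per library. In this list 2 genes were higher and 1 lower without overlap, where 13.9% of all genes tested showed no overlap. Some direct cofactors of Lpl were named after their values were seen. The inhibitor Apoc3 had a log2 change of 0.63, the activator Apoa5 of −0.07 and the maturation factor Lmf1 of 0.30. The activator Apoc2 had a log2 change of −0.38 (SE 0.67), but on only 9 to 71 counts per library, 0.561 to 4.55 CPM. So low a level leaves its change poorly measured.

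Angptl8 differed between single livers far more than between the groups. Angptl8 (ENSMUSG00000047822, chromosome 9, 21835510 to 21837347, plus strand) stood at 13.8, 297 and 51.2 CPM in WT 1, 2 and 3 and at 468, 44.4 and 26.1 CPM in KO 4, 5 and 6. Each group held 1 liver far above its others, WT 2 and KO 4, and the other 4 livers lay between 13.8 and 51.2 CPM. The range was 21.5-fold among the WT-labelled and 17.9-fold among the KO-labelled libraries, and 33.8-fold over all 6. A range that large was reached by 1.49% of the 13693 genes tested. The fitted factor was 1.49 with a 95% interval of 0.191 to 11.6 (log2 0.57, SE 1.28, edgeR adjusted p = 0.888). KO 4 decided the direction: without it the log2 change was −1.77 (SE 1.12).

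These differences rest on many reads, with 222 counts of Angptl8 in WT 1 and 5151 in KO 4. The gene lies within the span of Dock6, which runs on the opposite strand and shares 0 exonic bases with it. Dock6 stood at 10.9, 44.4 and 35.4 CPM in WT 1, 2 and 3 and at 65.9, 20.98 and 47.2 CPM in KO 4, 5 and 6. KO 4 was highest and WT 1 lowest in both genes, while KO 6, second highest in Dock6, was second lowest in Angptl8. The part of Dock6 in the Angptl8 values was not tested. KO 4 was also the library with the largest mitochondrial share, 28.0%. KO 6, second in that share at 19.8%, was second lowest in Angptl8. WT 2, second highest in Angptl8, had a share of 12.7%, the highest of the WT-labelled libraries.

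Angptl4 had its extremes in other livers. Angptl4 (ENSMUSG00000002289, chromosome 17, 33773750 to 33781575, minus strand) stood at 506, 141 and 279 CPM in WT 1, 2 and 3 and at 283, 280 and 449 CPM in KO 4, 5 and 6. Highest were WT 1 and KO 6, the livers lowest in Angptl8, and lowest was WT 2, the liver second highest in Angptl8. KO 4, highest in Angptl8, lay in the middle for Angptl4. The log2 change of Angptl4 was 0.13 (SE 0.45, edgeR adjusted p = 0.933). It was 0.68 without WT 1, −0.22 without WT 2 and −0.14 without KO 6.

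The balance of the regulators thus turned over between livers of the same group. Per length, Angptl4 exceeded Angptl8 9.63-fold in WT 1, 1.43-fold in WT 3, 1.66-fold in KO 5 and 4.54-fold in KO 6. In WT 2 and KO 4 Angptl8 exceeded Angptl4 instead, 8.02-fold and 6.28-fold. Of the summed level per length of all 9 genes, Angptl8 made up 67.8% in WT 2 and 71.3% in KO 4, and 4.61% to 22.1% in the other 4 livers.

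**Figure D5:**
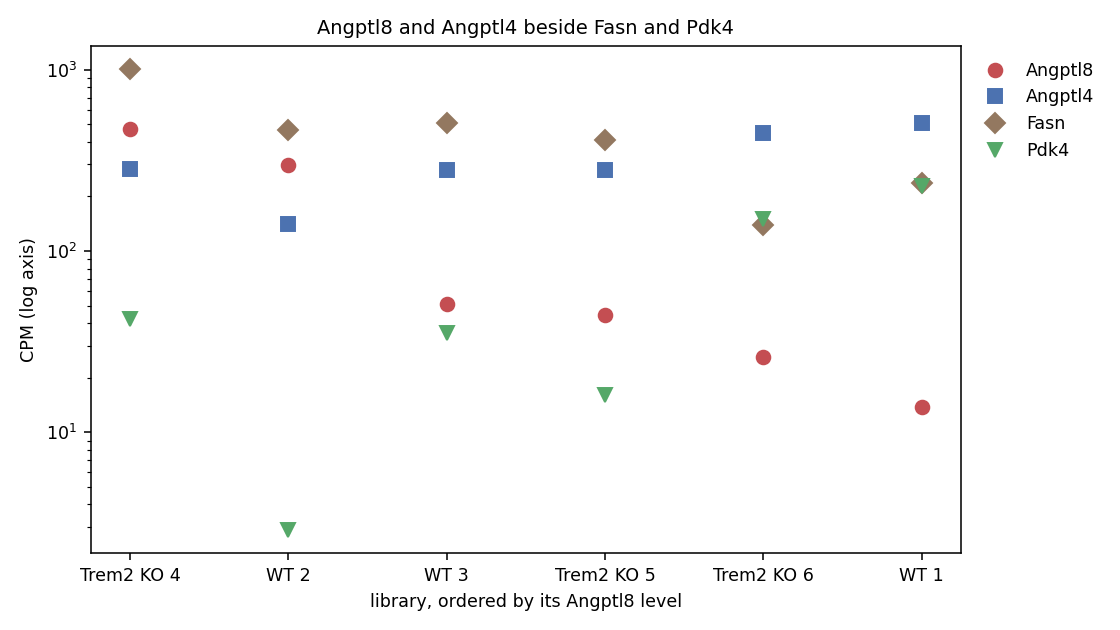
CPM (log axis) of Angptl8 and Angptl4 beside Fasn and Pdk4 in each library, ordered from the highest to the lowest Angptl8 level. Pdk4 and Angptl4 are highest, and Fasn is lowest, in KO 6 and WT 1, the libraries with the least Angptl8. Pdk4 and Fasn were picked after their values were seen, and some other members of their lists did not follow them.

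Pdk4 and Fasn, picked after their values were seen, had extremes in some of the same livers, and some other members of their lists did not follow them. Pdk4, a kinase that spares glucose in fasting and a PPAR target like Angptl4, stood at 228 CPM in WT 1 and 151 CPM in KO 6, at 2.88 CPM in WT 2 and at 16.02 to 41.96 CPM in the other 3. Fasn, fatty acid synthase, was lowest in KO 6 and WT 1 at 138 and 237 CPM, and highest in KO 4 at 1008 CPM. Against this order, Fgf21, a fasting hormone of the liver and also a PPAR target, was lowest in WT 1 at 2.24 CPM. The lipogenic genes Acly, at 128 CPM in WT 1 against 76.2 CPM in WT 2, and Thrsp, at 1149 against 983 CPM, were higher in the liver low in Angptl8. Between KO 4 and KO 6 both went the other way and were higher in KO 4, Acly at 131 against 29.7 CPM and Thrsp at 1505 against 597 CPM. The labels used here give no time since feeding and no hour of collection, and their part in these values was not tested.

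As lists, PPAR targets and lipogenic genes had 0 members past the threshold. Of 18 PPAR targets 13 were fitted higher and 5 lower, with a median log2 change of 0.33. Ucp2, an uncoupling protein homologue, averaged 24.4 ± 4.54 CPM over the WT-labelled libraries against 65.3 ± 2.51 CPM over the KO-labelled ones, a log2 change of 1.42 (SE 0.21, edgeR adjusted p = 0.236). Cd36, a fatty acid transporter, had a log2 change of 1.67 (SE 0.29, edgeR adjusted p = 0.297). In DESeq2 both passed, at adjusted p of 1.45e-05 and 9.08e-05. Of 14 genes of insulin- and LXR-driven lipogenesis 11 were fitted higher and 3 lower, with a median of 0.38, which was 0.21 without KO 5 and 0.0013 without KO 4. Me1, malic enzyme, had a log2 change of 1.04 (SE 0.39, edgeR adjusted p = 0.526), or 0.54 (SE 0.30) without KO 5. Insig2 had a log2 change of 0.86 (SE 0.32, edgeR adjusted p = 0.523). Because Insig2 retains SREBP in the endoplasmic reticulum, its higher fit cannot be counted as more lipogenesis, and the list mixes directions.

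Some genes followed members closely over the 6 libraries. The likeness is the root mean square difference of mean-centred log2 CPM over 6 libraries, so that 0 is an identical pattern. Nearest to Pnpla2 were Tamm41 at 0.0839 and Nlrp12 at 0.0958, where the median gene lay at 0.484. Nearest to Lpl were Myo5a at 0.226 and Kctd12b at 0.235 (median gene 0.718), both at or below 3.63 CPM in every library. Nearest to Angptl4 were Gja4 at 0.176 and Inhbb at 0.187 (median gene 0.686). With 13693 genes and 6 libraries, close matches are bound to be found, and no shared function is implied.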

How the data were processed

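Frozen livers were extracted with Trizol, and an Illumina TruSeq kit turned 1 ug of each RNA into a library, per the labels' protocols. The aligner HISAT2 2.0.5, the counter featureCounts 1.5.0-p3, the package DESeq2 1.16.1 and build mm10 appear in the submitters' processing notes without their settings. Whole-number read counts for each gene come from the authors' deposited table. The authors' deposited FPKM table (counts scaled by gene length and library size) was used only as an alternative. Groups and replicate numbers come from the sample titles. No 2 libraries were alike within sampling noise (lowest chi-square per degree of freedom 46.9 over 15 pairs).

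The test was run in edgeR 4.0.16 (R 4.3.3): filterByExpr, TMM scaling, quasi-likelihood test, Benjamini-Hochberg adjustment over all 13693 genes tested, threshold 0.05. SEs are the log2 change over the square root of F, and 95% intervals use the test's degrees of freedom. Exact permutation tests were two-sided. The biological coefficient of variation was 34.7%. On simulated counts with known changes, over these genes and 3 against 3 libraries, 3 of 76 calls were false. Exon overlaps come from GENCODE vM21, whose span equals that in the count table for 8 of the 9 genes (not for Angptl4); the exonic lengths of Lipg and Angptl4 differ.

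The 9 genes, the gene lists and the alternatives were chosen with earlier results of these data known. All 9 genes are named; of each pathway list, called members or otherwise the 2 with the smallest p; nearest patterns are given for Pnpla2, Lpl and Angptl4. Alternatives were DESeq2 1.42.0, limma 3.58.1 (voom, with and without quality weights, and FPKM with pseudocounts of 1 and 0.1 where the mean was at least 0.1), other scalings and filters, the mitochondrial share or 1 surrogate variable (sva 3.50.0) as covariate, and libraries left out. An FPKM change on the log2(value + pseudocount) scale understates the change of low genes.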

Additional observations from a re-analysis of the deposited data

How the results depend on the processing

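Of 171 refits of the 9 genes under 19 alternatives, 156 kept direction and side of the threshold. The count of the 9 genes past the threshold was 0 under all alternatives except limma-voom with sample quality weights, where it was 3 (Mgll, Lipe and Gpihbp1, all higher), with 4063 genes called in all; that fit gave WT 3 and KO 6 weights of 5.53 and 2.82 and the other libraries 0.303 to 0.989. With libraries left out singly the count stayed at 0 (0 to 0). In those fits the edgeR unadjusted p was under 0.05 for Mgll without WT 1 (0.037), Lpl without WT 3 (0.0080) and Gpihbp1 without KO 5 (0.016). The direction turned for Pnpla2 (−0.14 without KO 6), Lpl (−0.0054 with quality weights), Lipc (0.025 without WT 1 and KO 4), Lipg (0.21 without WT 1, 0.16 without KO 6, 0.19 with 1 surrogate variable), Angptl4 (−0.22 without WT 2, −0.14 without KO 6) and Angptl8 (−1.77 without KO 4, −2.30 without WT 1 and KO 4, −1.23 with the mitochondrial share, −0.68 with 1 surrogate variable). The cause was not tested. With single libraries left out the log2 changes ran from −0.14 to 0.37 for Pnpla2, −0.66 to 0.21 for Lipg, 0.33 to 1.25 for Lpl, 0.21 to 0.54 for Lipe, −0.22 to 0.68 for Angptl4 and −1.77 to 2.45 for Angptl8. Lipe, Mgll and Gpihbp1 were fitted higher under all 19, though Lipe was at 0.058 with the mitochondrial share and 0.088 with 1 surrogate variable or without WT 1 and KO 4.

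The 2 genes called over the whole table became 176 with DESeq2 and 61 without a filter on low counts. They became 9 with 1 surrogate variable and 4 with FPKM and a pseudocount of 0.1. The count was 1 with limma-voom, library size alone, the mitochondrial share or FPKM with a pseudocount of 1. It was 0 without WT 1 and KO 4, and 0 to 1 with single libraries left out, where fewer samples enter the fit.

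List medians also moved. Intracellular partners had 0.035 with quality weights and 0.059 to 0.30 with single libraries left out. Vessel partners had 0.10 with 1 surrogate variable, 0.12 without WT 1 and KO 4, and 0.020 to 0.13 with single libraries left out. PPAR targets had 0.82 with quality weights, 0.81 with 1 surrogate variable, 0.83 without WT 1 and KO 4, and 0.14 to 0.64 with single libraries left out. Lipogenic genes had −0.12 with quality weights, −0.0040 without WT 1 and KO 4, and 0.0013 (without KO 4) to 0.56 with single libraries left out. No paired analysis was possible because the labels give no pairing of libraries between the groups.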
